A study of Mus musculus with 6 samples.

Results

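The genes described here are 10 that belong to the antioxidant programme of NRF2, taken by symbol from the 55487 genes of the deposited expression table. They are Nfe2l2, Nqo1, Hmox1, Gclc, Gclm, Slc7a11, Gsr, Txnrd1, Srxn1 and Osgin1. All 10 symbols were found, each in 1 row and each a protein-coding gene, and 9 had a mean of at least 1 FPKM (fragments per kilobase of gene per 1000000 counted fragments), the level needed for testing. Slc7a11 was below it.

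The RNA-seq libraries came from the kidney endothelium of 6 mice, 1 library per mouse. The control group was 3 wild-type littermates. The I-PpoI group was 3 mice with a VE-cadherin Cre recombinase and a STOP-I-PpoI gene, at a locus written ROSA26, ROSA27 and ROSA28 in mice 1, 2 and 3. VE-cadherin is an endothelial adhesion protein, so its promoter directs Cre to endothelium, where Cre removes the STOP and lets I-PpoI be made. I-PpoI is a homing endonuclease that cuts DNA at fixed recognition sites and so leaves double-strand breaks. Every mouse, control or I-PpoI, ate a diet in which fat supplied 60% of the energy, begun at 8 weeks of age and kept up for 4 weeks, so no library shows the programme on standard chow. The cells had been pulled from collagenase-treated kidneys with magnetic beads against CD31 (Pecam1), a surface protein of endothelium that some leukocytes and platelets also carry. The study concerns endothelial DNA damage and endothelin-1 signalling.

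NRF2, the product of Nfe2l2, is a transcription factor that KEAP1 normally holds in the cytoplasm and hands to a ubiquitin ligase for destruction. Oxidants and electrophiles modify KEAP1, NRF2 then accumulates, pairs with a small MAF protein and binds antioxidant response elements near its target genes. The targets make glutathione, keep thioredoxin reduced, break down heme and clear quinones. Because the control step acts on the protein, the level of Nfe2l2 RNA is not a measure of NRF2 activity.

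The libraries differed in counted fragments. Multiplying FPKM by exon length gave whole fragments, 14081222 to 16954480 in the controls and 13324303 in I-PpoI mouse 3, but 1590957 and 834149 in I-PpoI mice 1 and 2. In those 2 libraries 68.2% and 70.6% of mitochondrial fragments lay on minus-strand genes, against 0.0473 to 0.0821% in the other 4, a pattern that counting on the other strand would give, which was not tested. I-PpoI mice 2 and 3 had 38.2% and 48.2% mitochondrial fragments against 6.42 to 18.3% elsewhere. The Y-linked gene Ddx3y had 959 to 1672 fragments in the controls and 0 to 20 in the I-PpoI libraries, and Xist, which marks an inactive X chromosome, had 0 to 4 in the controls and 0, 70 and 4739 in I-PpoI mice 1, 2 and 3. By these genes the controls read as male and I-PpoI mice 2 and 3 as female, so sex and genotype cannot be told apart for those mice. I-PpoI mouse 1 had 20 Ddx3y fragments and 0 of Xist. The few fragments and the strand pattern of I-PpoI mice 1 and 2 limit what these genes say about them. The part of the other differences in the results was not tested. All 20 endothelial markers were above 0 in every library, with a summed level of 3762 to 4299 FPKM in the controls and of 2992, 1170 and 1776 FPKM in I-PpoI mice 1, 2 and 3. These sums are FPKM as deposited, where most genes were lower in the I-PpoI mice. The part of library scaling, strand pattern and mitochondrial content in them was not tested. In bulk RNA, fewer endothelial cells and less RNA per cell also cannot be told apart.

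As deposited, 8 of the 9 tested NRF2 genes had a lower mean in the I-PpoI mice and 1, Osgin1, had a higher one. None passed the test (limma on log2(FPKM + 1), adjusted over all genes). Most other genes were lower too: the median log2 fold change over 14962 tested genes was -0.65, and 71.6% of them were below 0. Once each library was scaled by the median of ratios, a correction for such a common shift, 5 of the 9 were below 0 against 49.2% of all genes. Nqo1 was then the lowest and Osgin1 the highest of the set.

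**Figure D1:**
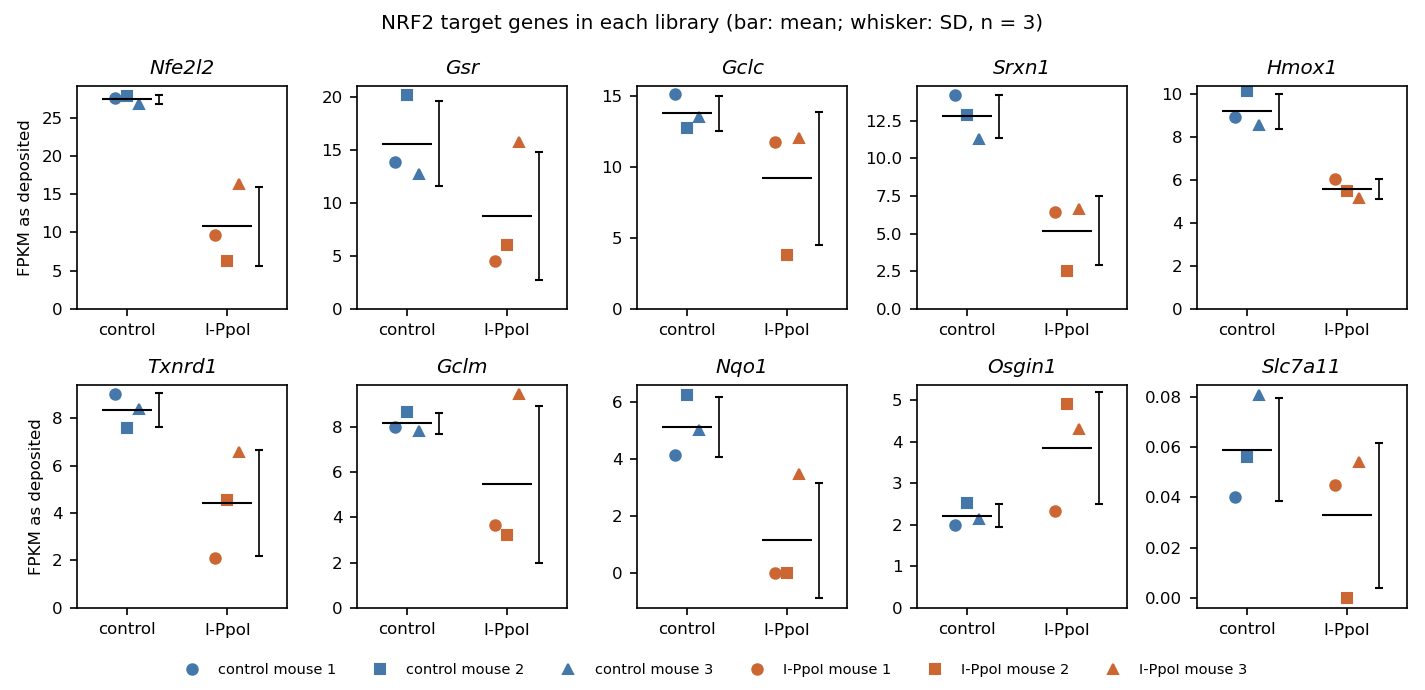
FPKM as deposited (vertical axes, each from its own scale) of the 10 NRF2 genes in the 3 control and 3 I-PpoI libraries. Points are mice, the horizontal bar is the mean and the whisker the SD; Hmox1 is low and tight in the I-PpoI mice (5.14 to 6.05), whereas Osgin1 is high in I-PpoI mice 2 and 3.

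The promoters of 3 genes are shown because these genes lay at the top and bottom of the set after scaling: Osgin1 highest, with Srxn1 the only one whose scaled groups separated downwards and Nqo1 lowest. Each window runs from 250 bases before to 50 after the RefSeq start, 5′ to 3′ on the gene's strand, in GRCm38.p6. They lie at chr8:119436897-119437196 on the plus strand, chr2:152105274-152105573 on the plus strand and chr8:107403156-107403455 on the minus strand. The Osgin1 start lies inside the longer Osgin1 gene model of the deposited table. Capitals mark matches to the core of the antioxidant response element, searched as TGACNNNGC or TGAGNNNGC on both strands.
Osgin1: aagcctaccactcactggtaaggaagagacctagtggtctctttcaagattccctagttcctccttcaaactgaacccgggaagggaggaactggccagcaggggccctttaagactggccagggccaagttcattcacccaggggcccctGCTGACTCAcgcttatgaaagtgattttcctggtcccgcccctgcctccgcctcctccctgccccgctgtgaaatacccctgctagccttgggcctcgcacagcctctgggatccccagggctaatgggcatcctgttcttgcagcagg
Srxn1: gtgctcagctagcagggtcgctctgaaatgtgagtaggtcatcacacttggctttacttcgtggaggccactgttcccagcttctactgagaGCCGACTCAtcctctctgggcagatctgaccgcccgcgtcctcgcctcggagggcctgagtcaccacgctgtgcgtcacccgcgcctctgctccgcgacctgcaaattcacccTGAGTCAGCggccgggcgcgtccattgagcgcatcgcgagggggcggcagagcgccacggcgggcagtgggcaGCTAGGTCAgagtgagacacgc
Nqo1: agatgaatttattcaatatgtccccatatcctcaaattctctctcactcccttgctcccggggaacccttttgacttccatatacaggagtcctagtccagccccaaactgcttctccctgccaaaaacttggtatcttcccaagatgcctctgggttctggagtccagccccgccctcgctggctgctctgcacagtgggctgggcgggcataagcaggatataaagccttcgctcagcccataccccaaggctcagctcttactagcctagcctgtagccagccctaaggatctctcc

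The Osgin1 match and the middle Srxn1 match are the same 9 letters on opposite strands, TGAGTCAGC, starting 99 and 45 bases before the start. Both overlap the AP-1 motif TGANTCA, so the letters do not tell the motifs apart. Srxn1 held 3 matches, and 0.63% of all 32851 promoter windows of this length hold 3 or more. Windows were found for 7 of the 10 genes (9 windows, with 3 for Txnrd1), and 6 of the 9 windows, of 6 genes, held a match. Of all windows, 27.8% held one, as did 32 of 96 windows of the other pathway genes described further on. Gclm, Txnrd1, Slc7a11 and Nfe2l2 held 1 match each in 1 window. No Nqo1 match says only that these letters are absent from these 300 bases. Sequences of Hmox1, Gclc and Gsr are not printed.

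In the control mice the levels of the 10 genes covered a wide range. Nfe2l2 was highest at 27.5 ± 0.597 FPKM (SD, n = 3), above Gsr at 15.6 ± 4.00. Gclc at 13.8 ± 1.24 and Srxn1 at 12.8 ± 1.44 overlapped with Gsr and with each other. Hmox1 (9.19 ± 0.811), Txnrd1 (8.33 ± 0.708) and Gclm (8.16 ± 0.454) formed a middle group whose neighbours overlapped, with every value below those of Srxn1. Nqo1 (5.13 ± 1.04), Osgin1 (2.22 ± 0.276) and Slc7a11 (0.0589 ± 0.0204) followed, each below every control value of the gene before it. In the I-PpoI mice each gene overlapped with the next in this order down to Osgin1. Slc7a11 was below every Osgin1 value there but not separate from Nqo1, which was listed at 0 in 2 libraries.

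The regulator Nfe2l2 (ENSMUSG00000015839, GRCm38 chromosome 2, 75675513 to 75704641) was measured at 27.7, 28.0 and 26.8 FPKM in the 3 control mice against 9.69, 6.29 and 16.4 FPKM for the 3 I-PpoI mice. Every I-PpoI value was below every control value. As deposited its log2 fold change was -1.37 (SE 0.39, limma adjusted p = 0.132). After scaling it was -0.57 (SE 0.31, limma adjusted p = 0.350), the I-PpoI mice were at 11.3, 10.7 and 19.7 and the controls at 19.1 to 21, so that mouse 3 lay within the control range. A noncoding gene on the other strand, E030042O20Rik, lies 129 bases away; its control levels were 0.896 to 0.954 FPKM, and its I-PpoI levels 1.75, 1.67 and 0.0526 FPKM. With 59 and 20 fragments and the untested strand pattern, the Nfe2l2 levels of I-PpoI mice 1 and 2 are uncertain. What the neighbouring gene gave to these levels was not tested.

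Among the detoxifying targets, Nqo1 encodes a quinone reductase and Hmox1 the enzyme that opens the heme ring. Nqo1 (ENSMUSG00000003849, chromosome 8, 107388225 to 107403206) had control levels of 4.14, 6.22 and 5.01 FPKM. It was listed at 0 in I-PpoI mice 1 and 2, and mouse 3 had 3.48 FPKM, also below every control. The zeros come from the libraries with few counted fragments and most mitochondrial fragments on minus-strand genes. Whether counting on the other strand gave them was not tested. A count of 0 allows 3 fragments, or 1.21 FPKM in I-PpoI mouse 1 and 2.32 in mouse 2. At the controls' share of strand-clear fragments, 6.44 and 2.14 Nqo1 fragments would be counted in these libraries. Strand-clear means nuclear protein-coding genes with no exon of an opposite-strand gene within 5 kb of their own exons, as holds for Nqo1, Hmox1, Gclc, Slc7a11, Gsr, Srxn1 and Osgin1. Nqo1 had a log2 fold change of -1.88 (SE 0.64, limma adjusted p = 0.132) as deposited and of -1.46 (SE 0.70, limma adjusted p = 0.318) after scaling. With zeros in 2 libraries the size depends on the pseudocount: as deposited it was -2.48 with 0.5 and -3.97 with 0.1 in place of 1 (limma adjusted p = 0.142 and 0.160). With I-PpoI mouse 3 alone on that side, assumed to vary like the controls, the scaled value was 0.15 (SE 0.30), so the low value rests on mice 1 and 2.

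Hmox1 (ENSMUSG00000005413, chromosome 8, 75093621 to 75100589) measured 8.91, 10.1 and 8.56 FPKM in control mice against 6.05, 5.45 and 5.14 FPKM in I-PpoI mice. These groups did not overlap as deposited, and the spread in the I-PpoI mice was the smallest of the tested set relative to the mean. Its log2 fold change of -0.64 (SE 0.28, limma adjusted p = 0.137) lay at the shift of all genes. After scaling the difference was 0.11, with a 95% interval from -0.54 to 0.76, and the I-PpoI values of 7.03, 9.25 and 6.18 lay within the control range of 6.13 to 7.59 for mice 1 and 3 and above it for mouse 2. Hmox1 rested on 17 and 8 fragments in I-PpoI mice 1 and 2 and on 120 in mouse 3.

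The glutathione genes were Gclc and Gclm, the catalytic and modifier subunits of the enzyme that sets the rate of glutathione synthesis, Slc7a11, the cystine importer, and Gsr, which reduces oxidised glutathione. Gclc (ENSMUSG00000032350, chromosome 9, 77754535 to 77794485) measured 15.2, 12.7 and 13.5 FPKM in control mice against 11.8, 3.8 and 12.1 FPKM in I-PpoI mice. The groups did not overlap, and mouse 2, with 12 fragments, was far below the others. Gclm (ENSMUSG00000028124, chromosome 3, 122245557 to 122270732) measured 8.01, 8.66 and 7.79 FPKM against 3.67, 3.23 and 9.46. I-PpoI mouse 3 was above every control and the other two were below every control. Gsr (ENSMUSG00000031584, chromosome 8, 33652523 to 33698163) measured 13.8, 20.2 and 12.8 FPKM against 4.53, 6.07 and 15.7. Here too mice 1 and 2 were below every control, but mouse 3 lay within the control range. After scaling the log2 fold changes were 0.09 for Gclc, 0.10 for Gclm and -0.13 for Gsr, with 95% intervals from -0.79 to 0.98, -0.84 to 1.04 and -1.32 to 1.05. Each interval includes both 0 and differences several times the estimate in either direction.

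Gclm overlaps Gm17494, a noncoding gene on the other strand. Its control levels were 0.007 to 0.0759 FPKM, and its I-PpoI levels 1.55, 1.28 and 0 FPKM, so the first 2 I-PpoI values of Gclm are uncertain. The ratio of Gclc to Gclm, which no scaling of a library changes, was 1.89, 1.47 and 1.74 in the controls and 3.21, 1.18 and 1.28 in the I-PpoI mice. The I-PpoI ratios lay on either side of the control range. Slc7a11 (ENSMUSG00000027737, chromosome 3, 49892526 to 50443614) was close to silent, with 9, 11 and 19 fragments in the controls and 1, 0 and 10 in the I-PpoI mice, and was not tested. By the same 3-fragment bound, a count of 0 allows 0.258 FPKM in I-PpoI mouse 2, above the control levels of 0.0400 to 0.0805. With so few counted fragments a difference was not detectable.

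Txnrd1, cytosolic thioredoxin reductase, and Srxn1, sulfiredoxin, which restores overoxidised peroxiredoxins, represent the thioredoxin arm. Txnrd1 (ENSMUSG00000020250, chromosome 10, 82833951 to 82897712) measured 9.01, 7.59 and 8.38 FPKM in control mice against 2.11, 4.55 and 6.58 FPKM in I-PpoI mice. As deposited the groups did not overlap; after scaling the I-PpoI values of 2.45, 7.72 and 7.91 lay on both sides of the controls at 5.70 to 6.53. Gm38560, a noncoding gene that lies 171 bases away on the other strand, was at 0 in I-PpoI mice 1 and 2 and at 0.220 to 0.813 FPKM in the other 4 libraries. Srxn1 (ENSMUSG00000032802, chromosome 2, 152105516 to 152111376) measured 14.2, 12.9 and 11.3 FPKM against 6.41, 2.54 and 6.65. It was the only member whose groups separated downwards both as deposited and after scaling, where the controls stood at 8.81 to 9.77 and the I-PpoI mice at 7.45, 4.31 and 8.00. The scaled log2 fold change was -0.49 (SE 0.30, limma adjusted p = 0.382). Scaled over strand-clear genes it was -0.22 (SE 0.29, limma adjusted p = 0.714), and the groups then overlapped.

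Osgin1 (ENSMUSG00000074063, chromosome 8, 119434124 to 119446256) encodes oxidative stress induced growth inhibitor 1. The control mice had 1.99, 2.53 and 2.14 FPKM, and the I-PpoI mice 2.33, 4.91 and 4.29 FPKM. As deposited, mouse 1 lay within the control range and the other two were above it, with a mean of 3.85 ± 1.35 against 2.22 ± 0.276 (SD, n = 3 each). After scaling, every I-PpoI mouse (2.71, 8.33 and 5.16) was above every control (1.37 to 1.90). The log2 fold change was 0.55 (SE 0.34, limma adjusted p = 0.225) as deposited and 1.18 (SE 0.39, limma adjusted p = 0.318) after scaling. An exact two-sided permutation test of the scaled values gave p = 0.10, the smallest that 3 against 3 allows. Groups that separate always give this p, so it adds nothing to the separation. Srxn1, separated downwards after scaling, had the same p, and Osgin1 as deposited had p = 0.20 by this permutation test.

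**Figure D2:**
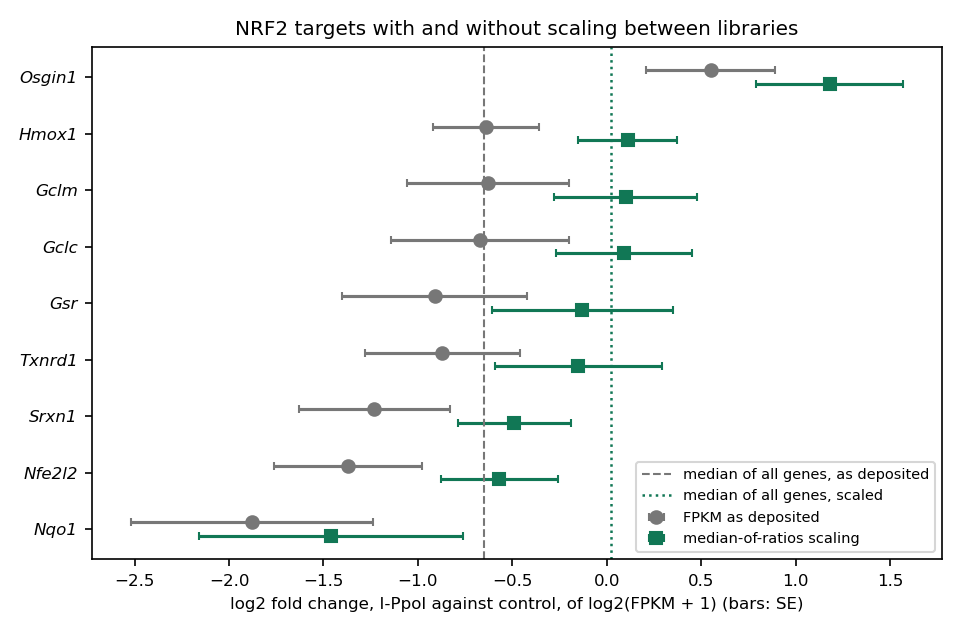
Log2 fold changes (horizontal axis, I-PpoI against control on the log2(FPKM + 1) scale, bars SE) of the 9 tested NRF2 genes as deposited and with median-of-ratios scaling; vertical lines are the medians of all tested genes (-0.65 and 0.02). Osgin1 lies above both lines (0.55 and 1.18) and Nqo1 below both (-1.88 and -1.46).

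A ratio within a library does not change with the scaling of that library. The Osgin1 ratio to each of the 8 other tested members separated upwards, with every I-PpoI mouse above every control (for Nqo1, listed at 0 in 2 libraries, the inverse ratio was used). To Hmox1 the ratio was 0.223, 0.250 and 0.250 in the controls and 0.385, 0.900 and 0.835 in the I-PpoI mice. The narrowest separation was from Gclc, where I-PpoI mouse 1 and control mouse 2 both rounded to 0.198. Osgin1 rested on 10 fragments in I-PpoI mouse 1, with a 95% exact Poisson interval of 1.12 to 4.29 FPKM. The lower end of that interval would undo the separation from Hmox1, Gclc and Srxn1. Of the 28 pairs without Osgin1, 5 separated as listed. Gclc to Srxn1, Gclc to Nfe2l2 and Gclm to Nfe2l2 were higher in the I-PpoI mice. Nqo1 to Gclm and Nqo1 to Gsr were lower, but these rest on the Nqo1 zeros, and the 2.32 FPKM that a count of 0 allows in mouse 2 would undo the separation. Against all other tested genes, the Osgin1 ratio separated upwards for 53.8% of 14961 and downwards for 0.822%. The same upward share was 19.5% for Gclc and 16.8% for Gclm. The downward share was 18.1% for Srxn1, 13.4% for Nfe2l2 and 10.3% for Nqo1. Beside such shares, the 5 pairs without Osgin1 are not read as particular to these genes. These ratios are a description, with no test, and the counting error of Osgin1 in I-PpoI mouse 1 bears on its shares too.

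Osgin1 rested on 86, 95 and 97 fragments in the controls, 10 and 11 in I-PpoI mice 1 and 2 and 153 in mouse 3. Its level was 16.9, 23.0 and 19.9 fragments per 1000000 strand-clear fragments in the controls. I-PpoI mouse 1 was at 40.9 (95% exact Poisson interval 19.6 to 75.3), which reaches into the control range. Mouse 2 was at 136 (67.7 to 243) and mouse 3 at 64.5 (54.6 to 75.5), both above it. The summed 7 strand-clear members had 517, 594 and 513 fragments per 1000000 strand-clear fragments in the controls and 606, 629 and 753 in the I-PpoI mice, the first 2 of these with exact Clopper-Pearson intervals (512 to 712 and 468 to 827) that include control values. The sum in I-PpoI mouse 3 was above every control (719 to 789). These intervals cover counting error only.

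**Figure D3:**
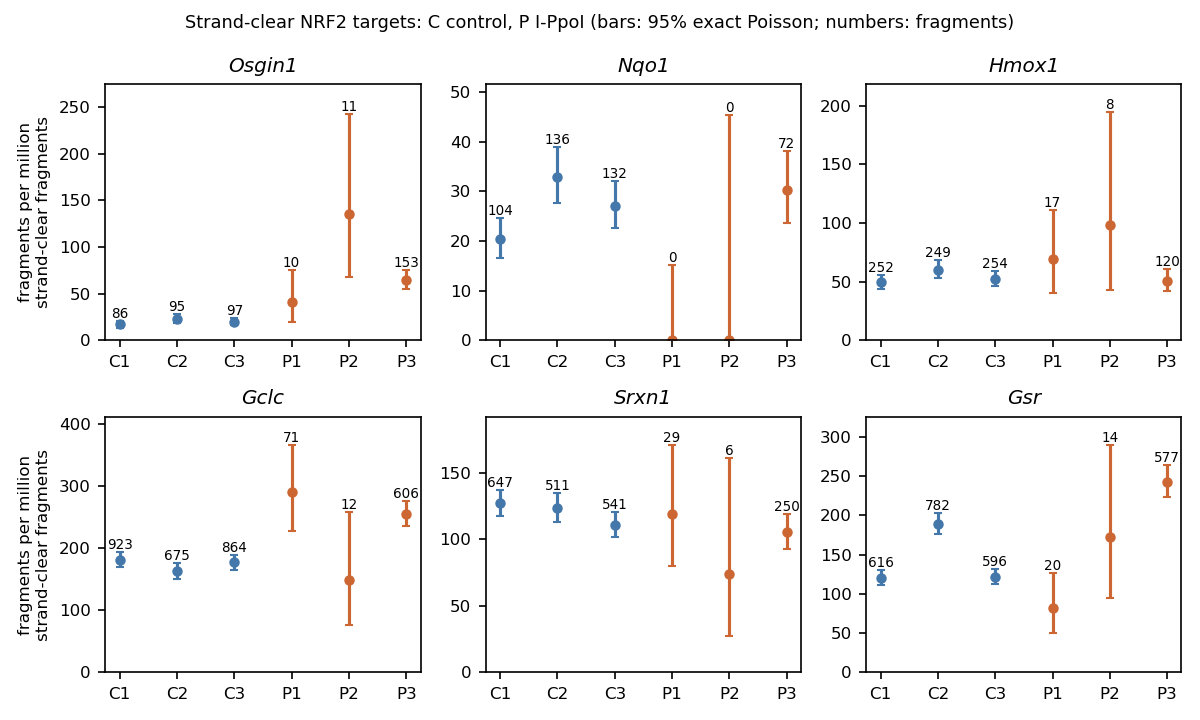
Fragments per 1000000 strand-clear fragments (vertical axes) of 6 NRF2 genes in control (C) and I-PpoI (P) libraries 1 to 3; bars are 95% exact Poisson intervals and the numbers above them the fragments counted. P1 and P2 rest on 0 to 71 fragments per gene and have wide bars, and Osgin1 in P2 and P3 lies above all 3 controls.

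Markers of proximal tubule, the reabsorbing epithelium beside the peritubular capillaries, also differed between libraries. The 18 markers summed to 483, 1234 and 419 FPKM in the controls and to 199, 915 and 1764 FPKM in I-PpoI mice 1, 2 and 3. The endocytic receptor Lrp2 was at 2.33 to 3.65 FPKM in the controls and at 0.784, 14.3 and 66.5 in the I-PpoI mice, with 2, 1 and 0 of the 18 markers at 0 in those mice and none at 0 in a control. As deposited, I-PpoI mouse 1 had the lowest tubule sum of the 6 libraries. The 10 macrophage markers summed to 36.8 to 225 FPKM in the controls and 93.8 to 257 in the I-PpoI mice, with 1 marker at 0 in I-PpoI mouse 1 and none elsewhere. Lymphocyte markers summed to 35.2 to 56.7 FPKM against 7.87 to 16.2, with 3 of 8 at 0 in each of I-PpoI mice 1 and 2. Platelet and red cell markers summed to 247 to 1007 against 106 to 215 FPKM, and mural and fibroblast markers to 674 to 938 against 378 to 433 FPKM. Podocyte markers summed to 669 to 1390 against 158 to 443 FPKM, markers of the later tubule to 230 to 281 against 130 to 170 FPKM, and neutrophil markers to at most 3.75 FPKM in any library. All these marker sums are FPKM as deposited, a scale on which most genes were lower in the I-PpoI mice. After scaling, the median log2 fold change of tested markers was 1.22 for proximal tubule, 0.97 for macrophage and 0.23 for mural and fibroblast lists. It was -0.42 for later tubule, -0.53 for podocyte, -0.64 for platelet and red cell and -1.03 for lymphocyte lists. What share of the NRF2 gene values these cells gave was not tested.

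**Figure D4:**
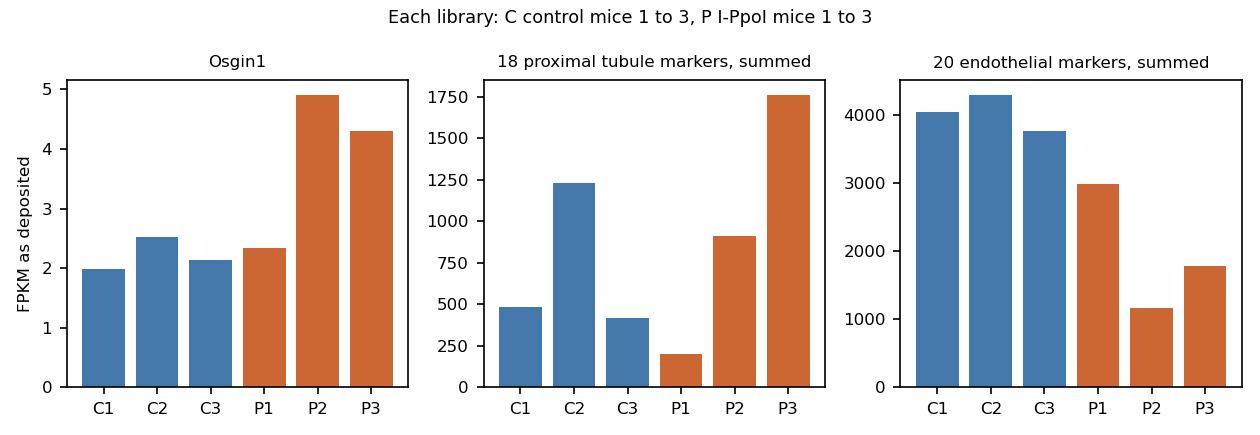
FPKM as deposited (vertical axes, from 0) of Osgin1, of 18 summed proximal tubule markers and of 20 summed endothelial markers in each control (C) and I-PpoI (P) library. Osgin1 is above every control in P2 and P3, and in P1 it rests on 10 fragments. The tubule sum is above every control in P3 (1764 FPKM), within the control range in P2 (915) and below it in P1 (199). The panels are not scaled between libraries, and how they relate was not tested. After scaling, the median log2 fold change of the 18 tubule markers was 1.22.

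Across the set, 0 of 9 members passed as deposited (limma adjusted p under 0.05), as did 0.0% of all tested genes, and 3 had an unadjusted p under 0.05, all lower, against 32.2% of all genes. Groups did not overlap for 6 members, all lower, against 45.1% of genes lower and 2.24% higher. With scaling, 0 passed (0.0% of genes) and only Osgin1 had an unadjusted p under 0.05, against 5.43% of genes on the higher side. Groups then separated for Srxn1 below and Osgin1 above, against 9.75% of genes below and 7.65% above. Over the 3717 strand-clear genes, 0 of 6 members passed (0.0% of genes). Unadjusted p was under 0.05 for Osgin1, on the higher side with 4.33% of genes, and for Nqo1, on the lower side with 5.27%. By limma-voom on the recovered fragments 0 passed (0.0% of genes), and Osgin1 alone had an unadjusted p under 0.05, on the higher side with 2.5% of genes. The members' median log2 fold change was -0.87 as deposited and -0.13 scaled, beside -0.65 and 0.02 for all genes. Per library, their median deviation from the control means after scaling was -0.42, -0.12 and 0.32 in I-PpoI mice 1, 2 and 3, on either side of 0, and -0.11 to 0.10 in the controls.

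The calls changed when I-PpoI mouse 3 was left out. Then 6 of 9 members were lower as deposited (Nqo1, Nfe2l2, Gsr, Gclm, Srxn1 and Txnrd1) against 36.1% of all genes, with limma adjusted p from 0.000503 for Nqo1 to 0.0253 for Txnrd1. With scaling 2 were lower, Nqo1 and Nfe2l2, against 13.8% of all genes. The I-PpoI side then holds only the 2 libraries with few counted fragments and most mitochondrial fragments on minus-strand genes.

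The wider pathway was read from 6 lists holding 78 further genes, of which 67 were tested. By limma none passed as deposited or scaled, with 26 lower and 0 higher at unadjusted limma p under 0.05 as deposited, against 32.2% and 4.23% of all genes. Scaled, 1 was lower and 2 were higher, against 2.87% and 5.43% of all genes. After scaling 33 of the 67 were above 0 and 34 below, with a median of -0.04. Regulators and partners of NRF2 had 4 of 9 above 0 and a median of -0.18. Sqstm1, the autophagy adaptor that competes for KEAP1, was at 132 ± 14.0 FPKM in the controls and 75.7 ± 8.94 in the I-PpoI mice (SD, n = 3 each), a scaled log2 fold change of 0.05. Nfe2l1, a related transcription factor, was at -0.18 and the small MAF gene Mafk at 0.11.

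Genes of glutathione use had 15 of 23 tested above 0 after scaling, with a median of 0.15. Gpx3, the secreted glutathione peroxidase that the kidney tubule supplies to plasma, was by far the highest. Its level was 1254, 1254 and 623 FPKM in the controls and 287, 1141 and 2662 in the I-PpoI mice. The other leading genes were the peroxidase Gpx1 (scaled log2 fold change 0.61, SE 0.54) and the transferase Gstm1 (0.33, SE 0.25), whose reads can be shared with near-identical Gstm genes. Neither passed.

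The thioredoxin and peroxiredoxin list stood lowest, with 8 of 11 below 0 and a median of -0.67. Txnip, which binds and inhibits thioredoxin, measured 497, 610 and 524 FPKM in control mice against 159, 58.5 and 205 FPKM in I-PpoI mice, with no overlap as deposited or scaled (scaled log2 fold change -1.27, SE 0.40, limma adjusted p = 0.318). Txn1, cytosolic thioredoxin, was at -0.73 (SE 0.44) and Prdx5 at 0.59 (SE 0.42).

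NADPH-supplying genes had 6 of 7 above 0 and a median of 0.16, with Taldo1 at 0.06, Idh1 at 0.40 and Tkt at 0.26. Heme and iron genes had 4 of 7 above 0 and a median of 0.06, with the ferritin chains Ftl1 at 0.06 and Fth1 at 0.32, both read with pseudogene copies in the genome, and the heme transporter Slc48a1 at -0.04. Detoxifying enzymes had 9 of 10 below 0 and a median of -0.50. Ephx1, an epoxide hydrolase, measured 149, 139 and 123 FPKM in control mice against 54.0, 23.3 and 66.3 in the I-PpoI mice, and the carboxylesterase Ces2g measured 24.7, 23.4 and 25.6 against 5.41, 2.67 and 14.1. Their scaled log2 fold changes were -0.78 (SE 0.33) and -1.09 (SE 0.48), each with limma adjusted p = 0.318. Akr1b3, an aldose reductase, was at -0.49 (SE 0.34).

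Of the 67 further pathway genes, scaled groups did not overlap for 7 below and 3 above, against the shares of all genes given for scaled values (9.75% and 7.65%). The 3 above were Gstm1, Txnrd2 and Cbr1. The 7 below were Rbx1, Gstp1, Mgst1, Txnip, Prdx4, Ephx1 and Ces2g. These names were chosen after their values were seen. Cbr1, a carbonyl reductase, measured 9.69, 13.7 and 10.6 FPKM in control mice against 10.7, 25.2 and 17.2 FPKM in I-PpoI mice, where mice 2 and 3 were again the high ones, as for Osgin1. Txnrd2 did not share this order, at 2.08, 2.65 and 2.19 FPKM in control mice against 7.08, 4.07 and 1.71 in I-PpoI mice. Nor did Gstm1, at 156, 201 and 177 against 142, 98.0 and 134 FPKM.

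**Figure D5:**
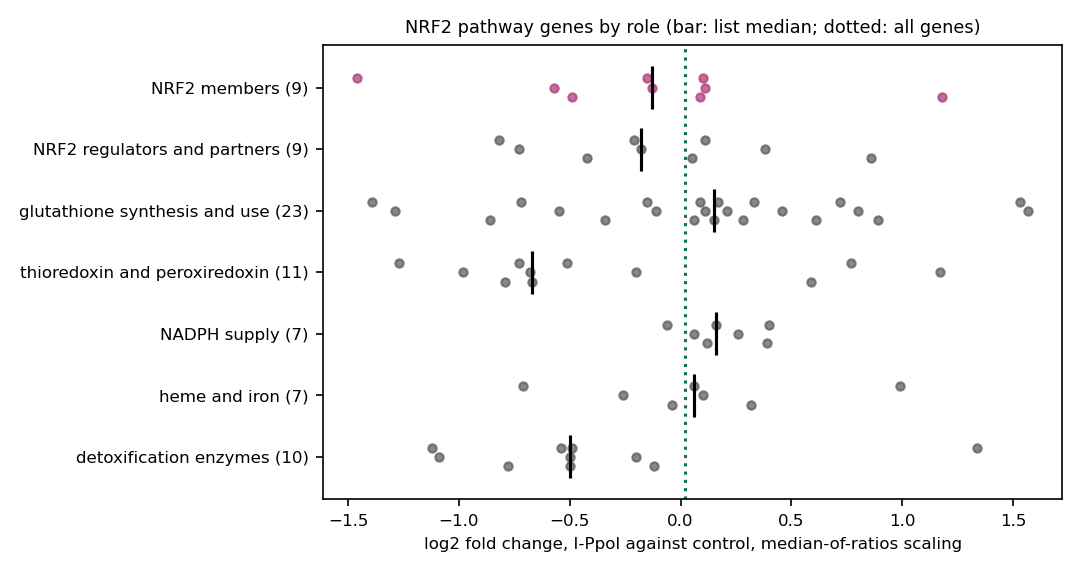
Scaled log2 fold changes (horizontal axis, I-PpoI against control) of the tested genes of the 10-gene set and of 6 further pathway lists; points are genes, black bars list medians, the dotted line the median of all genes (0.02). The thioredoxin list (median -0.67) and detoxifying enzymes (-0.50) lie mostly to the left, the others on both sides.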

How the data were processed

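The authors deposited FPKM per gene for 6 libraries, read from both ends over 100 cycles per the labels' protocols. The submitters' processing notes name DESeq2 1.28.13 and the builds mm10 and GRCm38; how reads were aligned and counted, and on which strand, was not given in the sources used here. Of 55487 gene IDs, 55141 are in GENCODE M21. FPKM times exon length gave whole fragments, within 0.05, for 99.2 to 99.4% of values under 1000 fragments, 834149 to 16954480 per library.

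Libraries were grouped by the labels, which describe separate mice. Their titles name no batch, and all 6 libraries were treated as 1 batch. The main test was limma on log2(FPKM + 1), with no block, for genes averaging 1 FPKM or more over the 6 libraries. P-values were adjusted by Benjamini-Hochberg over all genes tested and read at 0.05. This scale understates the differences of low genes. Intervals are 95%. The step was also run on simulated counts, drawn from control gene shares at the real library totals with a dispersion of 0.05. The simulation held no strand or mitochondrial differences, so it does not show how the test behaves on these libraries. The 10 members, the lists and the tests were chosen with earlier results of these data known. Members are all described; other lists name their 3 highest genes. Promoters are from RefSeq (GRCm38.p6). Alternatives covered pseudocount, filter, scaling, strand-clear genes, limma-voom, the replicate block and libraries left out. Models ran in limma 3.58.1 under R 4.3.3. Tables used pandas 2.3.3, numpy 2.4.6 and scipy 1.17.1, and plots matplotlib 3.10.9, under python 3.11.15.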

Additional observations from a re-analysis of the deposited data

How the results depend on the processing

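The count of 0 members past the threshold held for every alternative run except those without I-PpoI mouse 3, where it was 6 as deposited and 2 scaled; leaving out 1 library in turn gave 0 to 6 members, 0 to 42 pathway genes and 0 to 8470 genes in all as deposited, and 0 to 2, 0 to 14 and 0 to 5695 scaled. With I-PpoI mouse 3 as the lone I-PpoI library, its spread taken to be that of the controls, 19 genes passed as deposited and 49 scaled, with 0 members. The replicate block left 0 genes and 0 members past the threshold, with or without scaling; same-numbered libraries correlated at 0.09, 0.06 and -0.02 as deposited and at 0.27, 0.20 and 0.19 over strand-clear genes, and nothing in the labels pairs them.

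The members' median of -0.87 (all genes -0.65) became -0.13 with median-of-ratios scaling, with or without the block (all genes 0.02), -0.43 with summed protein-coding scaling (all genes -0.26), 0.36 with endothelial list scaling (all genes 0.45), 0.26 over strand-clear genes (all genes -0.04) and -0.02 by limma-voom (all genes 0.04). Without I-PpoI mice 1 and 2 it was -0.30 (all genes -0.60), and 0.35 scaled (all genes -0.01). It was -1.16 to -0.69 with 1 library left out and -0.40 to 0.15 with that and scaling (-0.15 and -0.11 without control mice 1 and 3, -0.11 without I-PpoI mouse 2). The 6 members whose groups did not overlap became 2 with median-of-ratios scaling. They became 3 with summed protein-coding scaling (1 higher, 2 lower, against 6.0% and 11.8% of all genes), 3 with endothelial list scaling (all higher, as were 23.6% of all genes) and 1 over strand-clear genes (higher, as were 5.46%). With 1 library left out they were 6 to 8, beside 46.1 to 57.6% of all genes lower and 2.31 to 21.9% higher. With that and scaling they were 2 to 5, beside 10.1 to 29.1% lower and 9.76 to 31.3% higher.

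Direction turned for 6 members. With median-of-ratios scaling, values were 0.11 for Hmox1, 0.09 for Gclc and 0.10 for Gclm, the same with the block. With endothelial list scaling they were 0.58 for Hmox1, 0.57 for Gclc, 0.56 for Gclm, 0.33 for Txnrd1 and 0.36 for Gsr. Over strand-clear genes they were 0.39 for Hmox1, 0.37 for Gclc and 0.14 for Gsr, and by limma-voom 0.40 for Gclc, 0.50 for Gclm and 0.33 for Gsr. Without I-PpoI mice 1 and 2 they were 0.19 for Gclm and 0.04 for Gsr, and with scaling 0.15 for Nqo1, 0.51 for Gclc, 0.86 for Gclm, 0.35 for Txnrd1 and 0.73 for Gsr. With scaling and 1 library left out the ranges were -0.12 to 0.47 for Gclc, -0.29 to 0.36 for Gclm, -0.57 to 0.29 for Gsr, -0.40 to 0.31 for Txnrd1 and 0.00 to 0.20 for Hmox1 (among them Gclm 0.03 without control mouse 1, Hmox1 0.17, Gclm 0.13 and Gsr 0.05 without control mouse 2, and Gclm 0.23 without I-PpoI mouse 2). As deposited they were -0.92 to -0.19, -1.04 to -0.39, -1.38 to -0.58, -1.16 to -0.52 and -0.69 to -0.57. The cause was not tested. Osgin1 stayed above 0 (0.39 to 1.61), and Srxn1 (-1.42 to -0.03) and Nfe2l2 (-1.69 to -0.02) below 0, under every alternative that tested them. Few counted fragments and the untested strand pattern in the first 2 I-PpoI libraries limit every member, strand-clear ones included.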

Other observations

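Of 6395 protein-coding genes outside the gene lists with a mean of at least 5 FPKM, the 5 whose scaled profile over the 6 libraries was most like the members' median were Oat, Ctsb, Bpnt1, Fmo1 and Mrpl45, with Pearson r from 0.985 to 0.995. All points share the same 6 libraries, so this is a description and has no p. Bpnt1, a phosphatase of sulfur nucleotide metabolism, was at 22.4, 27.6 and 26.3 FPKM in control mice 1, 2 and 3 and at 6.75, 8.27 and 30.9 in I-PpoI mice 1, 2 and 3. Fmo1, a flavin-containing monooxygenase, measured 20.4, 24.9 and 23.2 against 8.21, 8.14 and 24.6 FPKM. These levels are as deposited, unlike the scaled profiles used for the likeness. As deposited, I-PpoI mice 1 and 2 were below every control for both genes. Mouse 3 was then above every control for Bpnt1 and within the control range for Fmo1.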
